A study of Mus musculus with 3 samples.

Results

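The genes described here encode the ligands, receptors, Smad proteins and antagonists of the Nodal, activin, BMP and TGF-beta pathway. They are a list of 59 genes, taken by name, and 57 of them were measured by at least 1 probe set annotated to a single gene symbol, with 119 such probe sets in all, among 18194 named genes and 45101 probe sets on the array. Total RNA of F9 cells was hybridised to 3 Affymetrix Mouse Genome 430 2.0 arrays, replicates 1, 2 and 3. F9 is a mouse embryonal carcinoma line, the stem cell of a teratocarcinoma, and the cells were undifferentiated and grown on gelatin in serum-containing medium, with no treatment named in the labels. The 3 arrays form 1 group with no treated or differentiated cells beside it, so each gene is set against the background of its own array and not against another condition.

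Ligands of this superfamily bind a complex of type II and type I receptor kinases, and the type I receptor then phosphorylates receptor-regulated Smads, which enter the nucleus together with the common partner Smad4. Nodal, activins and TGF-betas signal through Smad2 and Smad3, whereas BMPs signal through Smad1, Smad5 and Smad9. Nodal also needs an EGF-CFC co-receptor, encoded by Tdgf1 (Cripto) or Cfc1 (Cryptic). In the early mouse embryo Nodal acts in the epiblast, and in mouse embryonic stem cells Bmp4 is known to act beside leukaemia inhibitory factor in self-renewal and to induce Id genes.

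Values are signal intensities on a linear scale, and the background threshold of an array is the 95th percentile of the signals of 129 probe sets for 115 olfactory, vomeronasal, taste receptor and hair keratin-associated genes. It lay at 44.4 on replicate 1, 46.0 on replicate 2 and 43.1 on replicate 3. A gene is called above background where log2 signal minus log2 threshold passed limma's one-sided moderated test at an adjusted p of 0.05 (Benjamini-Hochberg, every probe set of the array included). Where a gene has several probe sets, the brightest on average stands for it. Probe sets differ in affinity, so signals of different genes were not ranked, and a gene that did not pass is not thereby absent. Whether the replicates are separate cultures is not given by the labels, and a p-value therefore covers array-to-array spread that could be purely technical. Median absolute differences between arrays, over named genes above background, were 0.11 to 0.15 log2 units. All 8 embryonal carcinoma markers were above background, including Pou5f1 (6809 ± 279, mean signal ± SD, n = 3). None of 7 fibroblast and 7 endoderm markers passed limma's test, while 0 fibroblast and 2 endoderm markers had an unadjusted p under 0.05. Of the endoderm markers, Gata6 (57.5 ± 3.95, adjusted p = 0.0501) and Sox17 (69.7 ± 18.6, adjusted p = 0.0724) lay close to the limit.

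Of the 57 measured pathway genes, 33 (57.9%) were above background by limma's test, against 51.1% of the 18079 named genes outside the background families, so the list as a whole lay near the share of all genes. The median log2 signal over the threshold was 1.51 for the pathway genes and 0.72 for all named genes. The roles were unevenly represented. Above background were 6 of 18 ligands (33.3%), 10 of 13 receptors and co-receptors (76.9%), 6 of 8 Smads (75%), 5 of 10 antagonists (50%), 1 of 3 processing and storage genes and 5 of 5 intracellular regulators. The differences between roles are counts of these lists and were not tested. When each gene was represented by its dimmest probe set instead of its brightest, 20 pathway genes (35.1%) were called, against 31.3% of all named genes. At that setting 2 of the 13 receptors (15.4%) and 5 of the 18 ligands (27.8%) were called. The order of receptors and ligands therefore depended on which probe set stood for a gene.

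**Figure D1:**
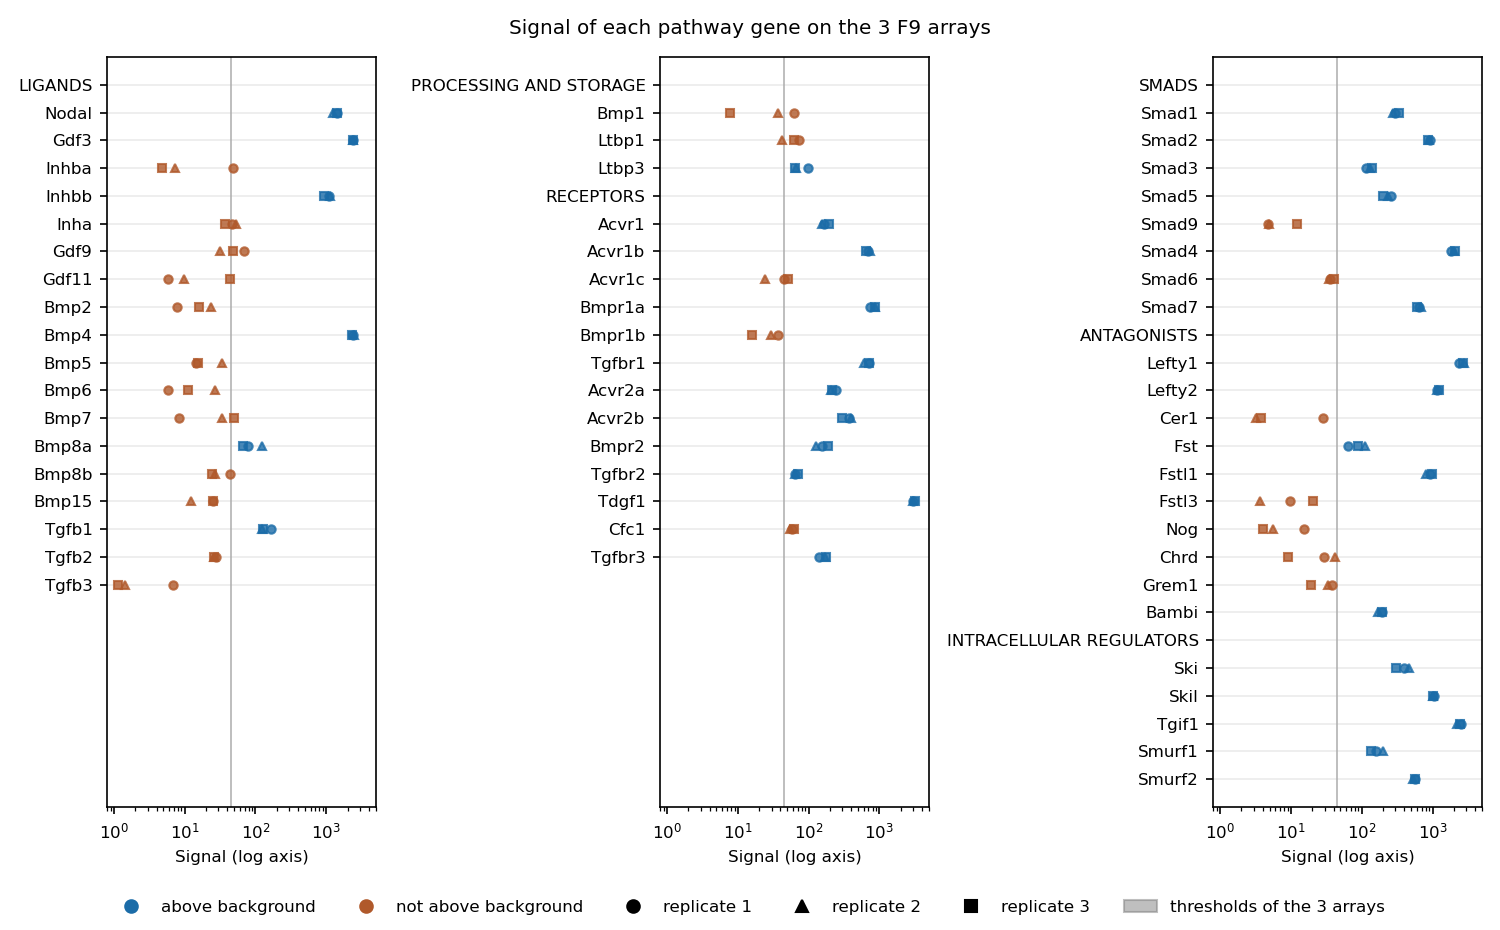
Signal of the 57 measured pathway genes (log axis), grouped by role, with 1 symbol per array; blue genes were above background and brown genes were not, and the grey band spans the thresholds of the 3 arrays, 43.1 to 46.0. Genes above background had mean signals from 66.3 to 3044, and the other genes from 3.11 to 59.7.

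**Figure D2:**
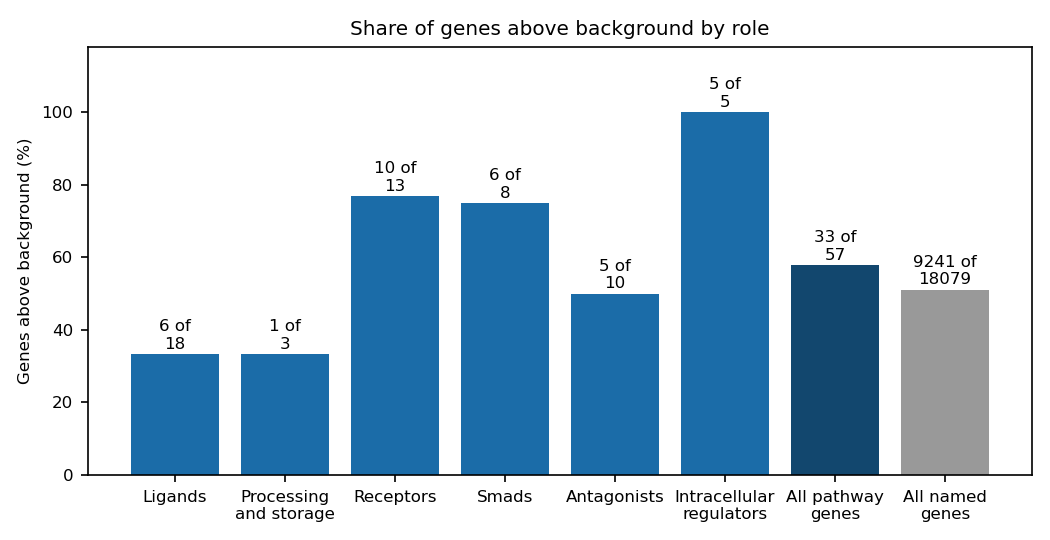
Percentage of measured genes above background for each role, for all pathway genes and for all named genes outside the background families, with the counts over the bars. With the brightest probe set of each gene, ligands stood at 6 of 18 and receptors at 10 of 13.

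The Nodal arm was represented at each step from ligand to antagonist. Nodal, the ligand itself, had signals of 1399, 1237 and 1406 on replicates 1, 2 and 3. It lay 4.92 ± 0.12 log2 units over the threshold (fitted value ± SE; limma adjusted p = 0.000118), and its other probe set was also above background. Gdf3, a related ligand that shares the Nodal receptors and co-receptor, had signals of 2355, 2394 and 2378. Its SD of 0.012 on the log2 scale was the smallest among the pathway genes, and it lay 5.74 log2 units over the threshold (limma adjusted p = 0.000109). Gdf1, the usual dimer partner of Nodal in the mouse embryo, had no probe set of its own. The probe set annotated to both Gdf1 and Cers1 read 11.3, 6.10 and 19.9, under the threshold on every array.

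Of the EGF-CFC co-receptors Tdgf1 stood clear and Cfc1 did not pass. Tdgf1, which presents Nodal to the type I receptor, had signals of 2940, 2958 and 3233, all far over the threshold (6.09 log2 units; limma adjusted p = 0.000109). Cfc1, known from left-right patterning, had 57.5, 54.1 and 62.9. These values exceeded the threshold on every array, yet the fitted 0.38 log2 units missed the limit (limma adjusted p = 0.0656). The call of Cfc1 depended on the setting, with an adjusted p of 0.0275 when the threshold was the 90th percentile, 0.0497 on the log2(signal + 16) scale, and between 0.00567 and 1.00 over 10 settings that kept the probe set.

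The Lefty genes, whose products bind Nodal and its co-receptor and block signalling, were both above background, and Cer1 was not. Lefty1 had signals of 2360, 2812 and 2686, with replicate 1 the lowest (5.87 log2 units; limma adjusted p = 0.000109). Lefty2 had 1159, 1173 and 1225, a narrower spread (4.73 log2 units; adjusted p = 0.000112). Each Lefty gene has 1 probe set, and because the genes are close paralogs, cross-hybridisation between them was not tested. Cer1 encodes Cerberus, a secreted antagonist made by anterior visceral endoderm, and its brighter probe set read 28.0, 3.23 and 3.74. All of these lay under the threshold, as did all 3 values of its other probe set.

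Of the activin and inhibin subunit genes Inhbb, Inha and Inhba, Inhbb was above background. Inhbb, whose homodimer is activin B, had signals of 1084, 1141 and 933 (4.56 log2 units; limma adjusted p = 0.000118), and both of its probe sets passed. Inhba, the subunit of activin A, had 47.9, 7.18 and 4.76. Only replicate 1 exceeded its threshold, and the log2 SD of 1.78 was the largest among the pathway genes. Inha, the alpha subunit that turns activin into inhibin, had 46.7, 53.5 and 37.6, on both sides of the threshold (limma adjusted p = 0.953).

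Fst and Fstl3 encode proteins that bind activins and keep them from their receptors, and Fstl1 was listed with them as a follistatin-like gene. Fst had signals of 64.7, 112 and 89.2, each over the threshold and replicate 2 the highest (0.96 log2 units; limma adjusted p = 0.0205). The call was lost without replicate 2 (adjusted p = 0.0826), without replicate 3 (0.104) and at the 99th percentile (0.157), within a range of 0.000632 to 0.157 over 10 settings, and the other Fst probe set lay at -0.35. Fstl1, a secreted follistatin-like glycoprotein, had 936, 818 and 970, with both probe sets above background (4.35 log2 units; limma adjusted p = 0.000144). Fstl3 had 9.76, 3.64 and 20.4, below the threshold on every array.

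Of the 8 BMP ligand genes measured, 2 were above background. Bmp4 had signals of 2394, 2502 and 2335 (5.76 log2 units; limma adjusted p = 0.000109). Its 3 values differed by little, with a log2 SD of 0.051. Bmp8a, a ligand known from spermatogenesis, had 79.0, 122 and 66.4. It was above background by 0.95 log2 units (limma adjusted p = 0.0236), with a log2 SD of 0.45, the largest among the pathway genes that passed. Dropping any 1 replicate ended that call (adjusted p between 0.0521 and 0.0856), as did the 99th percentile (0.125), within a range of 0.000769 to 0.125 over 10 settings. Its close paralog Bmp8b had 44.3, 26.9 and 24.3 and did not pass.

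Bmp2, Bmp5, Bmp6, Bmp7 and Bmp15 did not pass either. Bmp2, close in sequence to Bmp4, had 7.79, 23.5 and 16.2, all under the threshold. Bmp7 had 8.21, 33.4 and 49.4, and only replicate 3 exceeded its threshold, by a small margin. Fitted values of Bmp5, Bmp6 and the oocyte ligand Bmp15 were -1.18, -1.88 and -1.16 log2 units. For Bmp5, Bmp7 and Bmp15, each with 3 probe sets, no probe set was above background. Neither of the other measured GDF genes passed. Gdf9, an oocyte factor, had 69.9, 31.3 and 48.6, with replicates 1 and 3 over their thresholds. Gdf11, which acts in axial patterning, had 5.88, 9.78 and 43.4, with replicate 3 just over its threshold. Gdf15 had no probe set of its own.

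Of the secreted BMP antagonists, Nog, Chrd and Grem1 did not pass. Among the other extracellular regulators the BMP-binding Twsg1 passed, whereas Dand5, Nbl1, Sost, Sostdc1, Chrdl1, Chrdl2 and Bmper did not. Nog (noggin) had 15.4, 5.53 and 3.99, far under the threshold at -2.67 log2 units. Chrd (chordin) had 29.4, 41.4 and 9.16, and Grem1 (gremlin) 37.8, 33.6 and 19.0. Each of these 3 genes was measured by 1 probe set, and none exceeded its threshold on any array or had an unadjusted limma p under 0.05. Bambi, a membrane pseudoreceptor that lacks the kinase domain and dampens signalling, had 195, 171 and 192 and was above background (2.06 log2 units; limma adjusted p = 0.000619).

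Of the TGF-beta ligands Tgfb1 alone passed. Its signals were 168, 123 and 127, with replicate 1 the highest (1.63 log2 units; limma adjusted p = 0.00229), and its second probe set lay at -1.56. Tgfb2 read 27.5, 26.1 and 25.7, steady but under the threshold, and none of its 4 probe sets passed. Tgfb3 read 6.75, 1.45 and 1.13. Latent TGF-beta is stored on binding proteins. Of their genes Ltbp4, given with the other extracellular regulators, passed at 1655 ± 197 (mean signal ± SD), and Ltbp2 did not. Among the listed pathway genes Ltbp3 passed at 98.4, 67.0 and 65.1 (0.76 log2 units, limma adjusted p = 0.0302). The Ltbp3 call came from 1 of 4 probe sets and ended at the 99th percentile (adjusted p = 0.177) and without any 1 replicate (0.0767 to 0.0917), within a range of 0.00311 to 0.177 over 10 settings. Its value turned to -1.64 when probe sets with the suffix _s_at or _x_at, which can match several transcripts, were left out. Ltbp1 had 73.8, 42.4 and 62.9, with replicate 2 under its threshold (limma adjusted p = 0.223). Bmp1, a metalloprotease that cleaves chordin and procollagens, had 62.3, 36.4 and 7.88 and did not pass.

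Receptors of all branches were above background in the main setting, the TGF-beta type II receptor gene Tgfbr2 by only 0.57 log2 units. Type I receptor genes passed in 4 of 6 cases. Acvr1b (ALK4), the type I receptor for Nodal and activin, had signals of 701, 726 and 650 (3.96 log2 units; limma adjusted p = 0.000124). Bmpr1a (ALK3), a BMP receptor, had 730, 858 and 865, with replicate 1 the lowest (4.19 log2 units; adjusted p = 0.00014). Tgfbr1 (ALK5), the TGF-beta type I receptor, had 704, 607 and 717 (3.92 log2 units; adjusted p = 0.00017). These genes stood far over the threshold on all 3 arrays. Acvr1 (ALK2), a further BMP type I receptor, had 166, 153 and 195, also over the threshold on every array (1.94 log2 units; adjusted p = 0.00113). Not above background were Acvr1c (ALK7; 45.4, 24.0 and 52.0) and Bmpr1b (ALK6; 37.2, 29.6 and 15.7), on any of 3 probe sets each.

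All 4 type II receptor genes passed. Acvr2b, which binds activins, Nodal and several BMPs, had 371, 392 and 292, with replicate 3 the lowest (2.97 log2 units; limma adjusted p = 0.000304). Acvr2a had 241, 206 and 213 (2.30 log2 units; adjusted p = 0.000456), and Bmpr2 had 154, 129 and 188 (1.80 log2 units; adjusted p = 0.00242). The Bmpr2 call came from 1 of 3 probe sets, with the others at -1.35 and -1.61 log2 units. The signals given for Acvr2b, Acvr2a and Bmpr2 exceeded the thresholds by a wide margin. Tgfbr2, the only type II receptor for TGF-beta, lay just over them at 64.0, 63.7 and 71.2 (0.57 log2 units; adjusted p = 0.0207). It came from 1 of 3 probe sets. Dropping any 1 replicate ended the call (0.0739 to 0.0956), as did the 99th percentile (0.548), within a range of 0.00319 to 0.548 over 10 settings. Tgfbr3 (betaglycan), a co-receptor that presents TGF-beta2 and inhibin, had 139, 168 and 178 (1.85 log2 units, limma adjusted p = 0.00115). Its other probe set lay at 0.22 log2 units and did not pass.

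**Figure D3:**
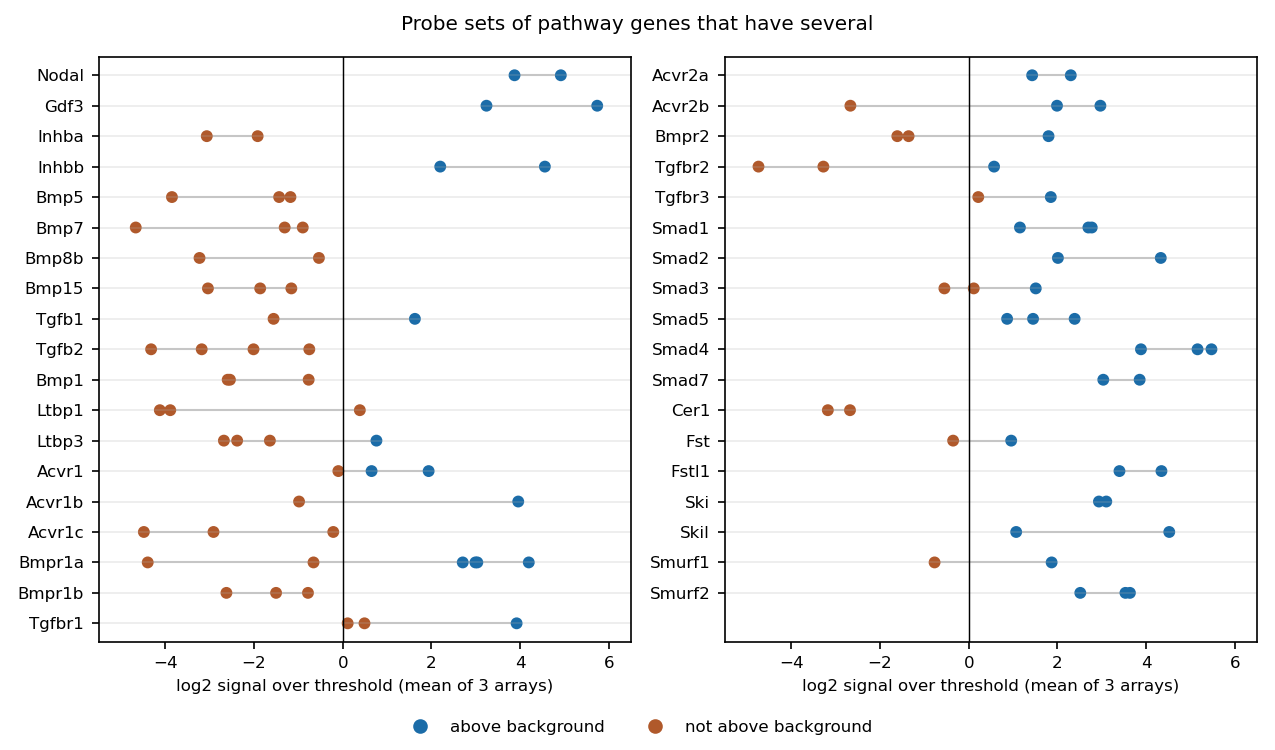
Log2 signal over the threshold, as the mean of 3 arrays, for every probe set of the 37 measured pathway genes that have several; blue probe sets were above background and brown ones were not. Probe sets lay on both sides of the call for 13 of the 37 genes, such as Bmpr1a with 4 of 6 above.

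Of the 119 probe sets of the pathway genes, 55 were above background. Of all 34829 probe sets with 1 gene symbol outside the background families, 15772 (45.3%) were, a similar share. Of the 37 pathway genes with several probe sets, 13 had all of them above background, 11 had none, and 13 (35.1%) had some on each side, against 39.9% of the 9000 named genes with several. Bmpr1a had 4 of its 6 probe sets above background and the other two at -0.66 and -4.40 log2 units. Acvr1b had 1 of 2, with the other at -0.98, and Tgfbr1 had 1 of 3, with the others at 0.49 and 0.11. The probe sets of a gene could not be placed on its transcripts here.

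The Smads of both branches were above background, apart from Smad9 and Smad6. Smad2, a Nodal and activin Smad, had 921, 901 and 866 (4.33 log2 units; limma adjusted p = 0.000115). Smad3, its partner in that branch, had 116, 129 and 138 (1.51 log2 units; adjusted p = 0.00146), from 1 of 3 probe sets. Smad4, the common Smad, had 1821, 2019 and 2106, and all 3 of its probe sets passed (5.47 log2 units; adjusted p = 0.000109). All 3 values of each of these genes exceeded the thresholds.

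In the BMP branch Smad1 had 297, 281 and 338 (2.77 log2 units; limma adjusted p = 0.000358). Smad5 had 263, 238 and 203 (2.39 log2 units; adjusted p = 0.000473). Every probe set of both genes was above background, 3 each. Smad9, the remaining BMP Smad, read 4.79, 4.93 and 12.2 on its 1 probe set, well under the threshold. The inhibitory Smads were split as well: Smad7, a feedback inhibitor of all branches, had 648, 689 and 598 (3.85 log2 units; limma adjusted p = 0.00013), and Smad6, which acts mainly on BMP signals, had 35.8, 34.6 and 40.3, under the threshold on each array.

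All 5 intracellular regulators passed. Tgif1, a homeodomain corepressor of Smad2 and Smad3, had 2487, 2226 and 2416 (5.74 log2 units; limma adjusted p = 0.000109). Skil (SnoN) had 1047, 1004 and 1017 (4.52 log2 units; adjusted p = 0.000114). Ski, the related corepressor, had 392, 470 and 303, a wider spread with replicate 3 the lowest, and lay 3.10 log2 units over the threshold (adjusted p = 0.000434). Of the ubiquitin ligases that mark Smads and receptors for degradation, Smurf2 had 568, 536 and 557 (3.64 log2 units; limma adjusted p = 0.000147) and Smurf1 had 161, 199 and 135 (1.87 log2 units; adjusted p = 0.00134). All 3 Smurf2 probe sets and 1 of 2 Smurf1 probe sets were above background.

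**Figure D4:**
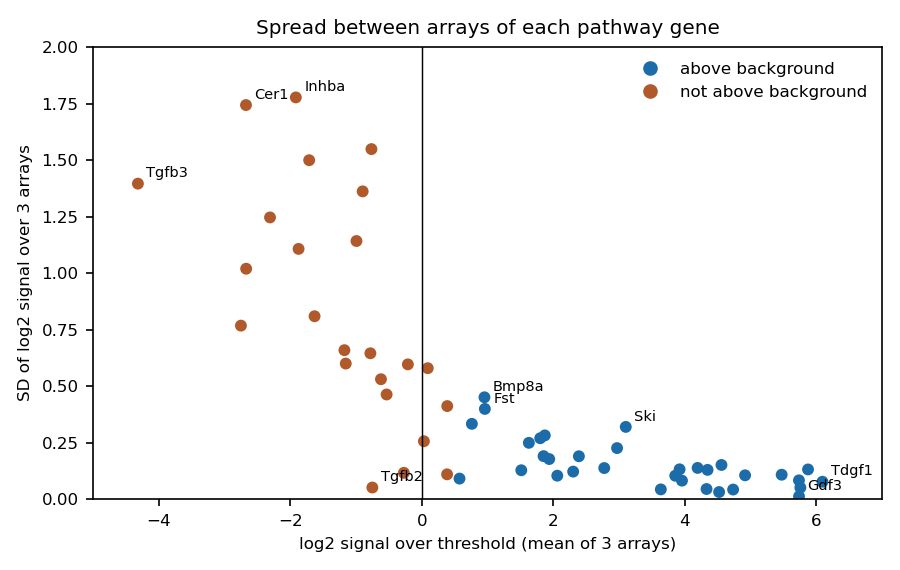
SD of log2 signal over the 3 arrays (vertical axis) against mean log2 signal over the threshold (horizontal axis), 1 point per measured pathway gene. Genes above background (blue) had SDs from 0.012 to 0.45, and the others (brown) from 0.051 to 1.78.

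The median SD of log2 signal was 0.13 over the 33 pathway genes above background and 0.71 over the 24 that were not, with 0.12 and 0.72 over all named genes above and not above background. The call itself depends on the SD, so these medians are a description. Of the 33 genes above background, 18 lay more than 3 log2 units over the threshold, 11 between 1 and 3, and 4 under 1 (Bmp8a, Ltbp3, Tgfbr2 and Fst). Of the 24 that did not pass limma's test, 20 had a fitted value under the threshold, and 1, Cfc1, had an unadjusted p under 0.05. Without a test, 34 of 57 pathway genes (59.6%) exceeded the threshold on all 3 arrays, against 53.8% of all named genes.

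**Figure D5:**
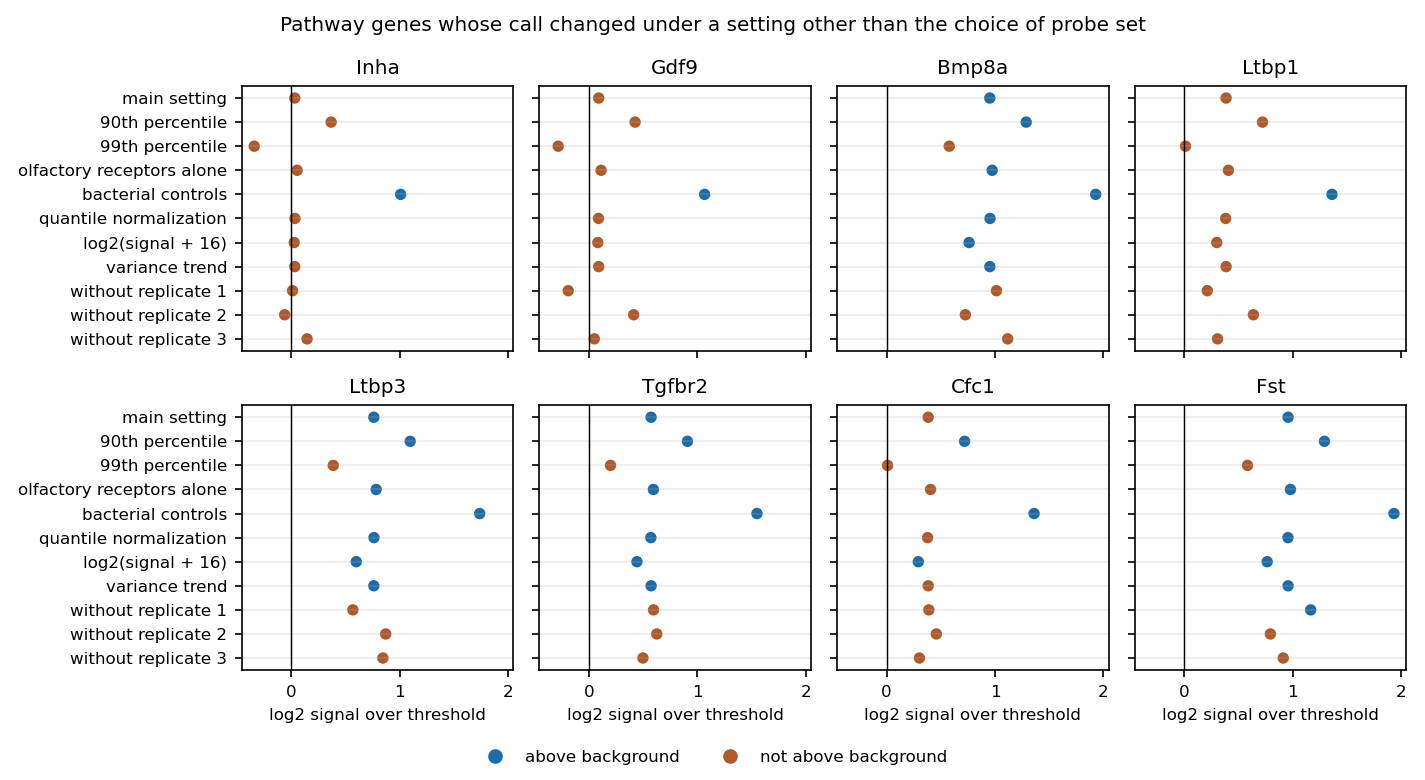
Log2 signal over the threshold for the 8 pathway genes whose call changed under at least 1 of 10 alternative settings that keep the probe set, 1 panel per gene and 1 row per setting; blue points were above background and brown points were not. Bmp8a, Ltbp3 and Tgfbr2 lost their calls without any 1 replicate and at the 99th percentile, and Inha, Gdf9 and Ltbp1 gained one with the bacterial controls alone.

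Beyond the 59 genes, 60 other genes of the pathway were listed, and 26 of the 51 measured (51.0%) were above background, a share next to the 51.1% of all named genes. The Smad partners and modifiers passed in 10 of 13 cases and known target genes in 8 of 11. Foxh1, the DNA-binding partner of Smad2 in the Nodal response, had 370, 407 and 329 on the 3 arrays, and all 3 of its probe sets were above background (limma adjusted p = 0.00021). Above background too were Trim33, a regulator of Smad4 (1205 ± 97.2, mean signal ± SD, n = 3), the deubiquitinase gene Usp9x (935 ± 99.3) and the Smad phosphatase gene Ppm1a (1440 ± 126). Zfyve9 (SARA), an anchor for Smad2 and Smad3, had 41.0 ± 13.2, Zfyve16 had 54.3 ± 8.49 and Runx1 had 57.3 ± 4.95, and none of these 3 passed.

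The Id genes, which BMP signals are known to induce, were above background in 4 of 4 cases. Id1 had 3777, 3757 and 3639, narrowly spread (6.39 log2 units; limma adjusted p = 0.000109). Id2 stood at 1209 ± 151, Id3 at 900.1 ± 36.0 and Id4 at 239 ± 14.9 (n = 3 each), all above background. The other known targets were divided. Gsc (11.9 ± 11.8), Mixl1 (13.7 ± 8.17) and Msx1 (67.3 ± 21.4) did not pass. Eomes, a Nodal target of gastrulation (470.3 ± 31.7), and Msx2, a BMP target (79.6 ± 4.97), passed, as did Pmepa1 and Tsc22d1, all 4 named after their values were seen. Id genes also respond to other signals, and no sample with the pathway blocked or stimulated was measured.

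Other ligand genes passed in 1 of 7 cases, that of the activin subunit gene Inhbe (140 ± 7.35), whereas Bmp10 (9.19 ± 3.15), Gdf2 (76.3 ± 32.2) and Gdf5 (11.9 ± 17.3) did not. Of the other receptors and co-receptors 3 of 5 passed, and 2 of 5 when the suffix decided the probe set or when _s_at and _x_at probe sets were left out. The 3 were Amhr2, the anti-Müllerian hormone receptor (148 ± 12.9), endoglin (Eng, 116 ± 10.9) and the BMP co-receptor Rgmb (119 ± 16.3). Acvrl1 (41.1 ± 13.8) and Rgma (20.4 ± 11.5) did not pass. The Amhr2 signal came from an _x_at probe set, and its call was the one lost without _s_at and _x_at probe sets. Above background were 2 of 3 probe sets of Amhr2, 1 of 2 of Eng and 1 of 6 of Rgmb. Extracellular regulators passed in 4 of 15 cases. The convertase genes Furin (170 ± 11.7) and Pcsk6 (461 ± 35.3), whose products cleave the Nodal precursor, were among them, with Ltbp4 (1655 ± 197) and Twsg1 (254 ± 36.8), while Pcsk5 (34.4 ± 18.0), Tll1 (17.1 ± 8.97) and Tll2 (1.34 ± 0.0568) were not above background.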

How the data were processed

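Total RNA of 3 F9 samples was measured on 1 array each. The authors deposited 1 intensity per probe set and array on a linear scale, made with GCOS 1.4, per the submitters' processing notes. No signal algorithm or detection call is named there. Scaling was already done, since the mean of the intensities without the highest and lowest 2% was 250.002 on each array, and no further normalization was applied. Gene symbols came from the platform annotation. Besides 64 controls, 34945 probe sets had 1 symbol, 932 several and 9160 none.

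Log2 signal minus log2 threshold was fitted for all probe sets by lmFit with an intercept and eBayes of limma 3.58.1, run under R 4.3.3. The code was tested on simulated arrays, with 200 probe sets set at each known distance over the threshold. Called were 0% at the threshold itself, 31% at 0.5 log2 units over it and 98.5% at 1 log2 unit. A gene less than 1 log2 unit over the threshold can therefore be missed. The number of arrays limits the precision. Alternatives changed the threshold, the background genes, the probe set, the normalization, the log scale, the variance model and the replicates. Members, roles and lists were chosen with earlier results of these data known. All members are named. Of each other list, the first 4 called and first 3 not called in written order are named. Exceptions, named after their values were seen, are Eomes, Msx2, Pmepa1, Tsc22d1, Ltbp2 and the regulators set beside Twsg1 that did not pass.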

Additional observations from a re-analysis of the deposited data

How the results depend on the processing

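The count of pathway genes above background stayed between 29 (50.9%) and 37 (64.9%) under every alternative except the dimmest probe set of each gene. Under the same alternatives the share of all named genes ranged from 46.5% (99th percentile) to 59.3% (bacterial controls). All 33 calls were kept with the 90th percentile, olfactory receptors alone, bacterial controls, quantile normalization, log2(signal + 16) and a variance trend. With the dimmest probe set, 20 of 57 pathway genes (35.1%) were called, against 5667 of 18079 named genes (31.3%). Called at that setting were 2 of 13 receptors, 13 of 51 other pathway genes, 0 of 5 other receptors, 6 of 13 Smad partners and 3 of 11 targets. Signals then fell under the threshold for Tgfb1 (-1.56 log2 units), Ltbp3 (-2.68), Acvr1 (-0.099), Acvr1b (-0.98), Bmpr1a (-4.40), Acvr2b (-2.67), Bmpr2 (-1.61), Tgfbr2 (-4.74), Smad3 (-0.55), Fst (-0.35) and Smurf1 (-0.77). This alternative picks the lowest value by construction, and the main setting picks the highest. Genes with several probe sets thus had more chances to pass in the main setting. Ltbp3 lay at -1.64 with the probe set chosen by suffix and without the _s_at and _x_at probe sets. Of the 3 processing and storage genes, 0 passed limma's test at the 99th percentile, by suffix, without _s_at and _x_at probe sets, with the dimmest probe set and with any 1 replicate left out (0 to 0), against 1 by limma's main test, 1 over the threshold on all 3 arrays without a test, and 2 with bacterial controls. Other ligands numbered 2 at the 90th percentile, with a variance trend or without a test, and 3 with bacterial controls. No paired analysis was possible because all samples form 1 group. Where the probe set was kept, the 8 pathway genes whose call changed all lay within 1 log2 unit of the threshold.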

Other observations

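Several pathway genes lie beside one another in the RefSeq gene table of GRCm38.p6, and their calls can be set side by side. These pairs were chosen after their values were seen. Lefty1 and Lefty2 are neighbours with 1 protein-coding gene between them, and both were above background (2619 ± 233 and 1186 ± 34.9, mean signal ± SD, n = 3). Acvr1 and Acvr1c are adjacent, with Acvr1 above background (171 ± 21.4) and Acvr1c not (40.5 ± 14.6). Smad3 and Smad6 are adjacent as well, with Smad3 above (127 ± 11.1) and Smad6 not (36.9 ± 3.02). Gdf3 has the pluripotency genes Dppa3 (98.0 ± 10.8) and Nanog (4866 ± 392) next to it on one side, and both were above background by limma's test. On its other side Apobec1 (84.4 ± 7.29) was above background too. Inhbb is flanked by Tfcp2l1 (3779 ± 83.7), a transcription factor gene of naive pluripotent cells, and by Gli2, Ralb and Tmem185b, each above background. No test of neighbourhood was made, and 51.1% of all named genes outside the background families were above background.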
